A study of Mus musculus with 6 samples.

Results

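The serum amyloid A proteins and a group of other secreted acute-phase proteins were followed in mouse embryos carrying a mutant Stat3 allele. The set held 10 genes, the serum amyloids Saa1, Saa2, Saa3 and Saa4, the serpins Serpina3n and Serpina3m, the inter-alpha-trypsin inhibitor chains Itih3 and Itih4, Lrg1 and Lbp. They were chosen by name, with earlier results of these data known, so counts of members set beside all probes are descriptions only. Every gene probe on the array whose accession maps to one of the 10 symbols was taken. This gave 11 probes, 2 of them for Itih4, out of 39429 probes, which cover 20659 named genes. Total RNA of embryos at day 12 was labelled with Cy3 and hybridised on 1-colour Agilent 4x44K arrays, 1 array per embryo and 6 arrays in all. The homozygous group held 2 embryos with the STAT3-K177K180R change on both alleles. The heterozygous group held 2 embryos with the change on 1 allele, and the wild type group held 2 embryos without it. Neither the strain nor the way the allele was made is given in the sources used here. According to the labels, embryos of the genotypes were taken from a shared uterus, and the litter of each embryo is not given. P-values below measure the spread between these embryos only.

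The acute-phase response is the change in plasma proteins that follows infection or injury. Interleukin-6 and related cytokines signal through gp130 and JAK kinases to STAT3, which enters the nucleus and acts on acute-phase genes in the liver together with C/EBP factors and NF-kappaB. Serum amyloids, serpins and inter-alpha-trypsin inhibitor chains are among the liver products that respond in adults, and the embryonic liver already makes many plasma proteins at midgestation.

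The 4 heterozygous and wild type arrays lay on 1 slide and both homozygous arrays on another, so the slide cannot be told apart from homozygosity in any comparison with homozygous embryos. The 75th percentile of the processed signal was 860 and 785 on the homozygous arrays, 1187 and 1263 on the heterozygous arrays, and 1037 and 1067 on the wild type arrays. The median signal of negative control spots was 43.5 and 48 on the homozygous arrays, against 26 to 27 on the other 4. Levels below are percentages of the array's own 75th percentile, so 100% is a spot as bright as that percentile. Each member probe had 1 spot per array. Of the 66 member values, 64 were well above background by the scanner software's flag, the exceptions being Saa3 in both wild type embryos. All 11 probes entered the test, Saa3 through its homozygous and heterozygous values. All 18 markers of embryonic tissues that were looked up (such as Sox2, Myod1, Tnnt2 and Pax1) were well above background on all 6 arrays. Of 12 trophoblast markers on the array 8 were also well above background on all 6, and 3 (Tpbpa, Psg18 and Ctsq) on none.

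Upstream sequence is shown for 4 members, because Saa1 and Saa2 are near-identical copies with unlike values, Saa3 was well above background in homozygous but not in wild type embryos, and Itih4 held a match to a STAT motif. Each is the 250 bases before 1 annotated transcription start, from RefSeq (GRCm38.p6), in the direction of transcription. For Saa1 and Saa3 the annotated gene begins further upstream than that start, so these windows overlap the gene's longest span. Windows were found for 8 of the 10 genes; Serpina3m and Lbp had none. Capitals mark every match, on either strand, to TTCNNNGAA (STAT), TTNNGNAA (C/EBP) or GGGA and TTCC parted by any 2 bases (NF-kappaB). No marked match overlapped another. Saa1 lies at chr7:46742981-46743230 (minus strand), Saa2 at chr7:46751583-46751832 (plus strand), Saa3 at chr7:46715677-46715926 (minus strand) and Itih4 at chr14:30886226-30886475 (plus strand).
Saa1: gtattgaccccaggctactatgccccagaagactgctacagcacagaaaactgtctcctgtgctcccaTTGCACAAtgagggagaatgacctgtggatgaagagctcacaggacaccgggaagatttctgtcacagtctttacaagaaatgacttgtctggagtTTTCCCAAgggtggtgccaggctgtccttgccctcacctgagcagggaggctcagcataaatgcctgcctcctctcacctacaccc
Saa2: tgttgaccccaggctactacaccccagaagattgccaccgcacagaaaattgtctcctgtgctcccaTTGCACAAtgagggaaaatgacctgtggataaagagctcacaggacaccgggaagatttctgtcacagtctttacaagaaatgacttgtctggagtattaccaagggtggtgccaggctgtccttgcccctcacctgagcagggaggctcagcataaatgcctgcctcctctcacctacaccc
Saa3: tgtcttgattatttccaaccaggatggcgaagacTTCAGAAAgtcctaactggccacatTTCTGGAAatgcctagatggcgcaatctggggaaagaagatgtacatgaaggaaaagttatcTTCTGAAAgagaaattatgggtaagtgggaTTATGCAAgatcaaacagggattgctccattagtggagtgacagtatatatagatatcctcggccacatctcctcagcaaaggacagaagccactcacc
Itih4: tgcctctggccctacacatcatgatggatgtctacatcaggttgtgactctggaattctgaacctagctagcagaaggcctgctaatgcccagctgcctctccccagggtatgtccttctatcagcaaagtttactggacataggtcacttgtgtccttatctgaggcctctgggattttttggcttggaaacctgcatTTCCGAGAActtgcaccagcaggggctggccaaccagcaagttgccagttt

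The Saa1 and Saa2 windows were identical in 238 of 251 aligned columns (94.8%), against 52.2% for Saa1 and Saa3 and 46.8% to 53.9% over all pairs other than Saa1 and Saa2. Saa1 and Saa2 both hold the C/EBP match TTGCACAA, and Saa1 alone holds a further one, TTTCCCAA. The C/EBP motif was found in the windows of 5 of 8 members (4 matches in Saa3, 2 each in Saa1, Saa4 and Serpina3n, 1 in Saa2) and in 36.9% of all 32851 windows of this length. The STAT motif was found in 1 of 8, Itih4, as TTCCGAGAA beginning 51 bases before the start, and in 7.02% of all windows. The NF-kappaB motif was in none of the 8 and in 1.21% of all windows. In the same annotation Saa3, Saa4, Saa1 and Saa2 follow each other as neighbouring coding genes on chromosome 7, Serpina3m and Serpina3n are neighbours on chromosome 12, and Itih4 and Itih3 are neighbours on chromosome 14. Lrg1 lies on chromosome 17, and Lbp lies on chromosome 2 beside Bpi, which codes for a related lipopolysaccharide-binding protein of neutrophils.

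Homozygous embryos had higher signal than wild type embryos for Saa3, Serpina3n, Itih3, Itih4, Lrg1 and Lbp, and lower signal for Saa2. Saa1, Saa4 and Serpina3m did not pass the test, which was limma's moderated test with genotype as the only term over 29827 probes and a Benjamini-Hochberg adjusted p below 0.05. In probes, 7 of 11 rose and 1 fell. Over all probes tested 27.8% passed, 13.2% higher and 14.6% lower. The median difference of the 11 probes was 1.25 on the log2 scale, against 0.08 over all probes. Both homozygous embryos lay beyond both wild type embryos for 10 of the 11 probes, as was the case for 68.9% of all probes. Without wild type replicate 1, 3 member probes rose and 0 fell, and without wild type replicate 2, 4 rose and 1 fell, while 858 and 590 of all probes rose, against 3938 with all 6 arrays. In whole embryos a change in the number of cells that make a transcript and a change in RNA per cell cannot be told apart.

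**Figure D1:**
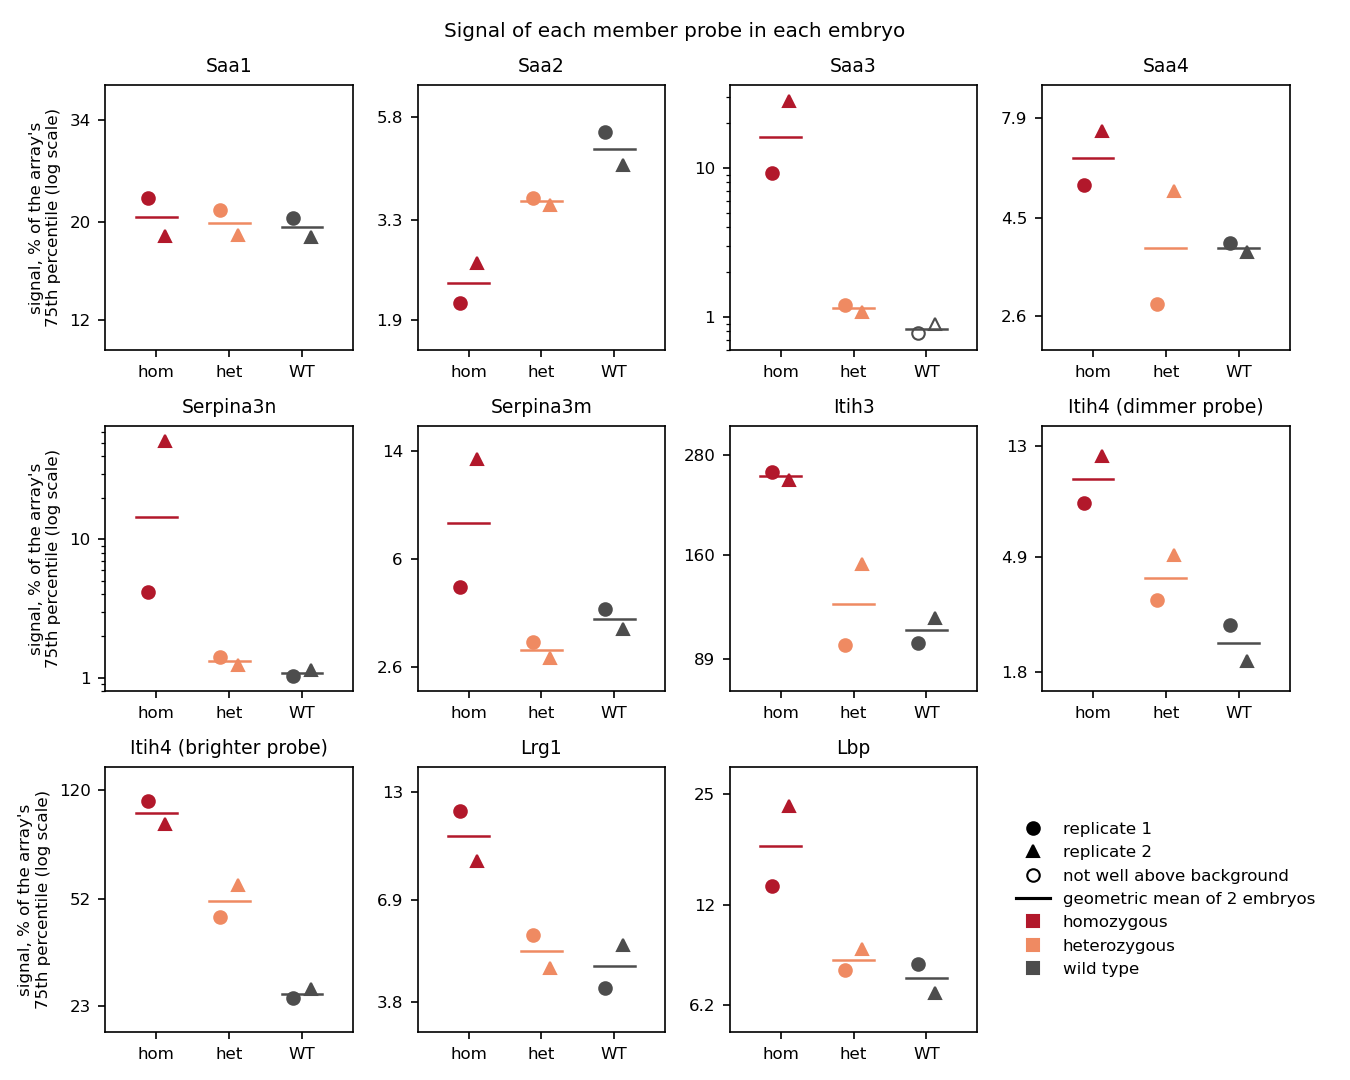
Signal of the 11 member probes in each of the 6 embryos, as percent of the array's 75th percentile on log axes that differ between panels, with homozygous (hom), heterozygous (het) and wild type (WT) embryos from left to right. Circles and triangles are replicates 1 and 2, lines are geometric means of 2 embryos, and open symbols (Saa3 in wild type) were not well above background. Saa3 stands far above the other genotypes in both homozygous embryos, and Serpina3n mainly in homozygous replicate 2. Saa2 is lowest in homozygous embryos, and Saa1 overlaps in all genotypes.

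Saa3, a serum amyloid made mainly outside the liver in macrophages and epithelia, was at 9.26% and 27.8% of the 75th percentile in homozygous embryos, 1.21% and 1.07% in heterozygous embryos, and 0.773% and 0.892% in wild type embryos. Both homozygous embryos were far above the other 4, and they differed from each other by 3.01-fold. The wild type spots had processed intensities of 8.01 ± 2.26 and 9.51 ± 2.48 (the scanner software's error of 1 spot) and were not well above background, so wild type has only a bound. The homozygous mean of Saa3 was at least 16.5-fold above wild type. This compares that mean with, on each wild type array, the higher of the probe's own signal and the dimmest well-above-background signal. The bound covers the wild type level only and not the spread between the homozygous embryos. The fitted difference was 4.27 ± 0.47 on the log2 scale (SE, 2 embryos each, adjusted p = 0.00239 by limma). It was 1.84 (adjusted p = 0.00239) with the normexp background correction, which adds an offset to every spot. The difference passed under each of the 14 settings in which it was tested. It was 5.07 without homozygous replicate 1 and 3.48 without homozygous replicate 2, where the spread between homozygous embryos is not measured.

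Saa2, one of the acute-phase serum amyloids that the adult liver releases onto high-density lipoprotein, was at 2.10% and 2.60% in homozygous embryos, 3.71% and 3.58% in heterozygous embryos, and 5.32% and 4.44% in wild type embryos. The 3 genotypes did not overlap, and homozygous embryos were lowest. Saa2 fell by 1.06 ± 0.16 on the log2 scale in homozygous embryos compared with wild type (SE, 2 embryos each, adjusted p = 0.00701 by limma). The difference was −0.16 (adjusted p = 0.296) with normexp correction and −0.93 (adjusted p = 0.0603) without wild type replicate 1.

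Saa1, its near-identical neighbour, was at 22.6% and 18.6% in homozygous embryos, 21.3% and 18.6% in heterozygous embryos, and 20.4% and 18.5% in wild type embryos. The 3 genotypes overlapped throughout. The difference between homozygous and wild type embryos was 0.08 on the log2 scale, with a 95% interval of −0.30 to 0.46 (adjusted p = 0.740 by limma). Sequences of the probes were not used here, so transcripts of Saa1 and Saa2 may share signal at either probe. The older synonyms of the 2 genes also overlap, and the names here follow the probes' accessions in the RefSeq table, so which gene each value belongs to is uncertain to that extent.

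Saa4, the constitutive serum amyloid of high-density lipoprotein, was at 5.41% and 7.34% in homozygous embryos, 2.78% and 5.23% in heterozygous embryos, and 3.90% and 3.72% in wild type embryos. The homozygous values were the highest 2 of the 6, and the heterozygous values lay on both sides of wild type. The difference between homozygous and wild type embryos was 0.73 with a 95% interval of −0.02 to 1.47 on the log2 scale (adjusted p = 0.125 by limma), and it passed with normexp correction (0.49, adjusted p = 0.0303).

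Serpina3n codes for a secreted inhibitor of serine proteases such as granzyme B and cathepsin G. It was at 4.17% and 51.3% in homozygous embryos, 1.41% and 1.24% in heterozygous embryos, and 1.03% and 1.14% in wild type embryos. Every genotype was separate from the others, and homozygous replicate 2 exceeded homozygous replicate 1 by 12.3-fold. The wild type spots were dim, with processed intensities of 10.7 ± 2.31 and 12.2 ± 2.51 (the error of 1 spot), though flagged well above background. Heterozygous minus wild type was 0.28 on the log2 scale as reported and −0.17 with normexp, so the order of these 2 genotypes is uncertain. The fitted difference between homozygous and wild type embryos was 3.75 ± 1.02 on the log2 scale (SE, 2 embryos each, adjusted p = 0.0390 by limma). It was 5.56 without homozygous replicate 1 and 1.94 without homozygous replicate 2. The call was lost without either wild type array (3.68 and 3.82, adjusted p = 0.145 and 0.142) and in the fit without either or both heterozygous arrays (adjusted p = 0.0728). It was also lost with no filter on dim probes (adjusted p = 0.0729) and with normexp followed by quantile normalization (1.78, adjusted p = 0.133), while normexp alone gave 1.91.

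Serpina3m, a paralog in the same cluster, was at 4.85% and 13.1% in homozygous embryos, 3.16% and 2.78% in heterozygous embryos, and 4.07% and 3.48% in wild type embryos. Here too homozygous replicate 2 was the higher, while replicate 1 was close to wild type, and the heterozygous embryos were lowest. The difference between homozygous and wild type embryos was 1.08 ± 0.43 on the log2 scale (SE, 2 embryos each, adjusted p = 0.104 by limma). It passed with normexp (0.75, adjusted p = 0.0319). The difference was 1.80 without homozygous replicate 1 and 0.37 without homozygous replicate 2, where the spread between homozygous embryos is not measured. The mouse Serpina3 cluster holds several closely related copies, so signal may be shared among them.

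Itih3 codes for a heavy chain that is transferred onto hyaluronan in the extracellular matrix. Its probe was at 254% and 243% in homozygous embryos, 96.6% and 152% in heterozygous embryos, and 97.7% and 112% in wild type embryos. The homozygous embryos were alike and above all others, and the heterozygous embryos lay around wild type. Itih3 rose by 1.25 ± 0.23 on the log2 scale in homozygous embryos (SE, 2 embryos each, adjusted p = 0.0113 by limma). The difference was 1.15 (adjusted p = 0.0753) without wild type replicate 1 and 1.35 (adjusted p = 0.0575) without wild type replicate 2.

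Itih4, a plasma glycoprotein of the same family that is an acute-phase protein, was measured by both of its probes. The brighter probe was at 111% and 92.3% in homozygous embryos, 45.6% and 58.1% in heterozygous embryos, and 24.4% and 26.2% in wild type embryos. The dimmer probe was at 7.91% and 11.9% in homozygous embryos, 3.36% and 5.0% in heterozygous embryos, and 2.71% and 1.97% in wild type embryos. At each probe the genotypes did not overlap and stood in the order homozygous, heterozygous, wild type. In homozygous embryos the brighter probe rose by 2.00 ± 0.17 on the log2 scale, a 4.00-fold difference (SE, 2 embryos each, adjusted p = 0.00127 by limma), and the dimmer probe by 2.07 ± 0.29 (adjusted p = 0.00501). Both probes kept their call under every setting tried in which they were tested, with adjusted p between 8.45e-05 and 0.0159 for the brighter and between 0.000939 and 0.0394 for the dimmer. With normexp the dimmer probe gave 1.12.

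Lrg1 codes for a leucine-rich glycoprotein that modulates transforming growth factor beta signalling in endothelium. It was at 11.6% and 8.66% in homozygous embryos, 5.63% and 4.64% in heterozygous embryos, and 4.14% and 5.32% in wild type embryos. Both homozygous embryos were above the other 4, which overlapped. Lrg1 rose by 1.1 ± 0.21 on the log2 scale in homozygous embryos (SE, 2 embryos each, adjusted p = 0.0137 by limma). The difference was 0.91 (adjusted p = 0.0917) without wild type replicate 1 and 0.70 with normexp, where it passed.

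Lbp codes for the lipopolysaccharide-binding protein, which hands bacterial lipopolysaccharide to CD14 and so to the receptor TLR4. It was at 13.6% and 23.1% in homozygous embryos, 7.79% and 9.0% in heterozygous embryos, and 8.15% and 6.72% in wild type embryos. Both homozygous embryos were above the other 4, which overlapped. Lbp rose by 1.26 ± 0.26 on the log2 scale in homozygous embryos (SE, 2 embryos each, adjusted p = 0.0176 by limma). The difference was 1.40 (adjusted p = 0.0646) without wild type replicate 1 and 1.12 (adjusted p = 0.112) without wild type replicate 2.

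**Figure D2:**
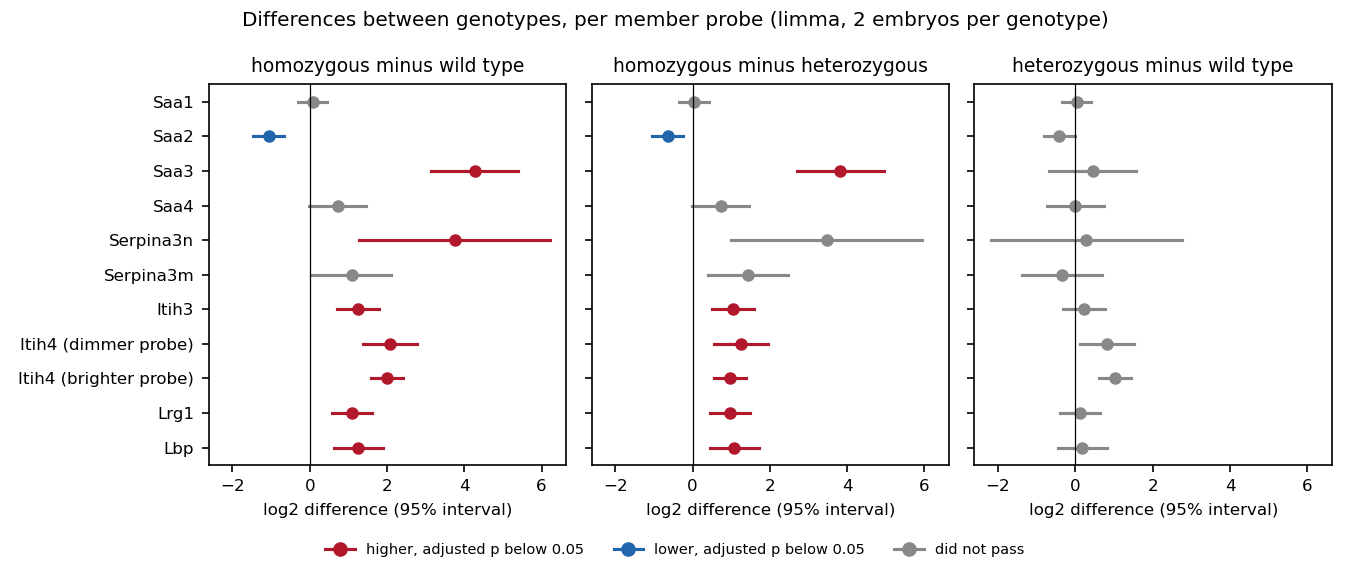
Fitted log2 difference of each member probe with its 95% interval (limma, 2 embryos per genotype), for homozygous minus wild type, homozygous minus heterozygous and heterozygous minus wild type. Red and blue points passed at an adjusted p below 0.05, grey points did not. Saa3 (4.27, with a wild type level that is only a bound) and Serpina3n (3.75) stand far to the right against wild type, Serpina3n with the widest interval. No point passed between heterozygous and wild type embryos.

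Of the 11 probes, none passed between heterozygous and wild type embryos, and none of all probes did (background 0%). At an unadjusted p below 0.05 limma gave 620 probes (2.08%), among them 3 member probes. The brighter Itih4 probe was 1.03 ± 0.17 higher in heterozygous than in wild type embryos on the log2 scale, 2.04-fold (SE, 2 embryos each, unadjusted p = 0.000822 by limma, adjusted p = 1.00), and the dimmer one 0.83 ± 0.29 higher (unadjusted p = 0.0269). Saa2 was at −0.42 ± 0.16 (unadjusted p = 0.0426). The heterozygous and wild type embryos did not overlap for 6 of the 11 probes, those of Saa2, Saa3, Serpina3n, Serpina3m and both of Itih4, while the share over all probes was 26.5%. For Saa3 the bound on the heterozygous over wild type fold was 1.17, but the fitted difference did not pass (0.46, unadjusted p = 0.364) and turned to −0.13 with normexp. The intervals of Serpina3n (−2.19 to 2.75) and Saa3 (−0.67 to 1.58) leave room for changes of more than 2-fold in heterozygous embryos. Their width comes mostly from the homozygous arrays, since the fit shares 1 spread over all 6 arrays. For Serpina3n the SD was 2.56 in homozygous, 0.13 in heterozygous and 0.10 in wild type embryos. For Saa3 it was 1.12, 0.12 and 0.15. These 4 arrays share 1 slide.

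Against heterozygous embryos, 6 member probes of 5 genes rose in homozygous embryos and 1, Saa2, fell, against a background of 22.8% of all probes (9.6% higher, 13.2% lower). This comparison uses the same homozygous arrays as the one with wild type. Saa3 was higher by 3.82 ± 0.47 on the log2 scale, 14.1-fold (SE, 2 embryos each, adjusted p = 0.00380 by limma). Itih3 was higher by 1.04 ± 0.23 (adjusted p = 0.0235), the brighter Itih4 probe by 0.97 ± 0.17 (adjusted p = 0.0125) and the dimmer by 1.24 ± 0.29 (adjusted p = 0.0286). Lrg1 rose by 0.97 ± 0.21 (adjusted p = 0.0234) and Lbp by 1.08 ± 0.26 (adjusted p = 0.0322), while Saa2 fell by 0.64 ± 0.16 (adjusted p = 0.0372). Serpina3n (3.47 ± 1.02, adjusted p = 0.0551), Serpina3m (1.43 ± 0.43, adjusted p = 0.0573) and Saa4 (0.72 ± 0.31, adjusted p = 0.135) did not pass, nor did Saa1 (0.04). The genotypes did not overlap for 10 of 11 probes, against 62.9% of all probes. The Saa2 call was kept under 5 of 15 other settings, and with normexp the difference turned to 0.14 (adjusted p = 0.338). Without heterozygous replicate 1 the difference was 3.90 for Saa3, 0.71 for Itih3, 0.80 and 0.96 for the brighter and dimmer Itih4 probes, 1.11 for Lrg1 and 0.98 for Lbp. Without heterozygous replicate 2 it was 3.73 for Saa3, 1.36 for Itih3, 0.83 for Lrg1 and 1.19 for Lbp. The brighter and dimmer Itih4 probes stood at 1.15 and 1.53 in that fit. Some member calls were lost in each of these fits, and calls over all probes fell in them as well. Saa3 kept its call in both, and Itih3 and the brighter Itih4 probe kept theirs without heterozygous replicate 2. Without either wild type array, as in the fit on the 4 arrays compared, the adjusted p was 0.0509 for Itih3 and 0.0615 for Lbp, and without homozygous replicate 2 it was 0.0578 for the dimmer Itih4 probe. Without homozygous replicate 1 the differences of Serpina3n and Serpina3m were 5.28 and 2.15, and without homozygous replicate 2 they were 1.66 and 0.71. Saa4 stood at 1.18 without heterozygous replicate 2. A genotype left with 1 array adds nothing to the spread in such fits. With normexp Serpina3n, Serpina3m and Saa4 passed (adjusted p = 0.0266, 0.0103 and 0.0131), but the median of all probes then rose to 0.24. Relative to that median they stood at 1.8, 0.74 and 0.35. Serpina3n and Serpina3m also passed with the array median as the scale (adjusted p = 0.0481 and 0.0453). The same 2 passed among probes well above background on all arrays (adjusted p = 0.0425 and 0.0448). With no filter on dim probes the dimmer Itih4 probe (adjusted p = 0.0560) and Lbp (adjusted p = 0.0614) lost their calls.

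The heterozygous mean lay between the homozygous and the wild type mean for 10 of the 11 probes, as it did for 54.6% of all probes and 74.3% of probes that passed between homozygous and wild type embryos. Only Serpina3m had its heterozygous mean outside. For Saa4 the heterozygous mean was between by 0.10% of the way only, and the genotypes of Saa1 overlapped. The count depended on the processing. With normexp and the 75th percentile the heterozygous mean was below wild type, and so outside, for Saa1, Saa3, Saa4, Serpina3n and Lrg1. That of Saa2 was then below both other genotypes. On the log2 scale the heterozygous mean stood 51.3% of the way up to homozygous from wild type for the brighter Itih4 probe and 39.96% for the dimmer. For Saa2 it stood 39.2% of the way down. No share is given for Saa3, whose wild type level is a bound. For Lrg1 it was 11.4%, for Lbp 14.1% and for Itih3 17.0%. These shares are descriptions, since the same arrays enter both differences.

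The homozygous embryos differed most from each other at the serpins and Saa3. Replicate 2 exceeded replicate 1 by 3.62 on the log2 scale for Serpina3n, and 0.0872% of all probes were further apart in that genotype. The distance was 1.59 for Saa3 (0.932% of probes were further apart) and 1.43 for Serpina3m (1.24%), with replicate 2 again the higher. For Itih3 it was 0.06 (86.6% further apart), for the brighter Itih4 probe 0.26 (48.3%) and for Saa1 0.28 (44.4%). Lbp stood at 0.76 (7.40%), with replicate 2 higher, and Lrg1 at 0.42 (27.0%), with replicate 1 higher. The typical distance between replicates, as the median over all probes, was 0.25 in homozygous, 0.17 in heterozygous and 0.11 in wild type embryos. Among heterozygous embryos the members furthest apart were Saa4 (0.91, 1.11% further apart) and Itih3 (0.65, 3.20%), with replicate 2 higher in each.

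Other acute-phase proteins were followed in a list of 27 genes, with 1 probe a gene, of which 22 were tested. In homozygous compared with wild type embryos 13 rose and 1 fell, with a median of 1.05 on the log2 scale. Over all genes 14% rose and 14.4% fell, with a median of 0.08. Haptoglobin (Hp), which binds free haemoglobin, was at 108% and 79.4% in homozygous embryos, 38.5% and 47.8% in heterozygous embryos, and 28.9% and 30.1% in wild type embryos (log2 difference from wild type 1.65 ± 0.19, SE, 2 embryos each, adjusted p = 0.00291 by limma). Ceruloplasmin (Cp), the copper carrier, was at 51.8% and 89.4% in homozygous embryos, 23.7% and 30.5% in heterozygous embryos, and 17.3% and 18.2% in wild type embryos (1.94 ± 0.27, adjusted p = 0.00502). For both genes the homozygous embryos were highest and the heterozygous embryos lay above wild type. Lipocalin 2 (Lcn2), which withholds iron from bacteria, rose by 1.66 ± 0.24 (adjusted p = 0.00564) and the fibrinogen chain Fgg by 1.44 ± 0.25 (adjusted p = 0.00969). The member of the list that fell was Hamp2 (−1.09, adjusted p = 0.0106), a close copy of hepcidin singled out after its value was seen. Orm1, Orm2 and Orm3, which code for the acute-phase orosomucoids, were not well above background on any array.

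Of 8 tested close relatives of the members, 1 rose, Serpina3i (0.71 ± 0.16 on the log2 scale, adjusted p = 0.0232 by limma), another copy in the Serpina3 cluster. The list's median was 0.05, and over all genes 14% rose and 14.4% fell. Of the plasma proteins that fall in an adult acute-phase response, 1 of 8 tested rose, the apolipoprotein Apoa2 (0.80, adjusted p = 0.0132), and none fell, with a median of 0.49.

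Among 33 tested ligands, receptors and factors that drive acute-phase genes, 3 rose and 7 fell in homozygous embryos compared with wild type, with a median of 0.25. The shares over all genes were 14% and 14.4%. Il11, a cytokine that signals through gp130, was at 24.4% and 22.0% in homozygous embryos, against 9.0% and 7.6% in heterozygous and 8.8% and 7.0% in wild type embryos (1.57 ± 0.17 against wild type, SE, 2 embryos each, adjusted p = 0.00241 by limma). The oncostatin M receptor Osmr rose by 0.83 ± 0.13 (adjusted p = 0.00726) and the C/EBP factor Cebpb by 0.62 ± 0.14 (adjusted p = 0.0236). The interleukin-6 receptor chain Il6ra fell by 0.94 ± 0.18 (adjusted p = 0.0137), and cardiotrophin Ctf1, another ligand of gp130 receptors, fell by 0.70 ± 0.15 (adjusted p = 0.0203). Stat3 itself was at 261% and 214% in homozygous embryos, 209% and 176.6% in heterozygous embryos, and 176% in both wild type embryos, a difference of 0.43 ± 0.16 that did not pass (adjusted p = 0.0923). The probe reports the transcript and not the altered residues, so it does not check the genotype. Il6st (gp130, 0.50, adjusted p = 0.166), Cebpd (0.35, adjusted p = 0.135) and the feedback inhibitor Socs3 (−0.32, adjusted p = 0.271) did not pass either, and Il6 was too dim to be tested.

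Of 18 tested binding partners and receptors of the members, 3 rose and 1 fell, against 14% and 14.4% of all genes, with a median of 0.22. Tlr4, the receptor downstream of Lbp, was at 6.93% and 9.65% in homozygous embryos, 3.91% and 4.69% in heterozygous embryos, and 3.38% and 3.47% in wild type embryos (1.26 ± 0.19, adjusted p = 0.00689 by limma). The 3 genotypes did not overlap there. Cd14, which takes lipopolysaccharide from Lbp, differed by 0.34 (adjusted p = 0.124). Fpr1, a formyl peptide receptor of neutrophils, rose by 1.36 ± 0.19 (adjusted p = 0.00457), and cathepsin G (Ctsg), a neutrophil and mast cell protease, by 1.27 ± 0.23 (adjusted p = 0.0109). The hyaluronan synthase Has2 fell by 0.68 ± 0.16 (adjusted p = 0.0258). In heterozygous embryos no gene of any list passed.

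Markers of several cell types moved with these groups, and their part in the members' differences was not tested. Against the counts below stand 14% of all genes higher and 14.4% lower. Of 20 hepatocyte markers, all of them well above background on every array, 7 rose and 0 fell in homozygous compared with wild type embryos, with a median of 0.50. Their summed level was 29253% to 31195% in homozygous embryos, 18536% to 21500% in heterozygous embryos, and 19375% to 20476% in wild type embryos. Alpha-fetoprotein (Afp) rose by 0.62 and the vitamin D-binding protein Gc by 0.97, while albumin (Alb, 0.48) and the liver factor Hnf4a (0.25) did not pass. Several hepatocyte markers, such as Fgb and Serpina1a, are acute-phase proteins themselves. Of 12 tested neutrophil markers 7 rose and 0 fell, with a median of 0.97 and summed levels of 5130% to 5948% in homozygous embryos, 3938% to 4035% in heterozygous embryos, and 3803% to 3829% in wild type embryos. Among them Elane rose by 1.26, Camp by 1.40 and S100a9 by 1.12. Of 12 macrophage markers 3 rose (Cx3cr1 by 0.57, C1qa by 0.54, C1qc by 0.52), with a median of 0.43 and sums of 1247% to 1416% in homozygous, 1144% to 1222% in heterozygous and 1066% to 1077% in wild type embryos. Of 11 yolk sac markers 1 rose, and of 8 trophoblast markers 2 rose and 3 fell. The trophoblast sum was 854% to 1751% in homozygous embryos, 4093% to 5821% in heterozygous embryos and 5001% to 5754% in wild type embryos, and most of it was Gcm1, which fell by 2.21. Decidua (1 higher, 2 lower of 7), choroid plexus (1 higher of 9), adipocyte (0 of 4), erythroid (0 of 8) and whole-embryo markers (1 higher, 1 lower of 18) made up the rest.

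**Figure D3:**
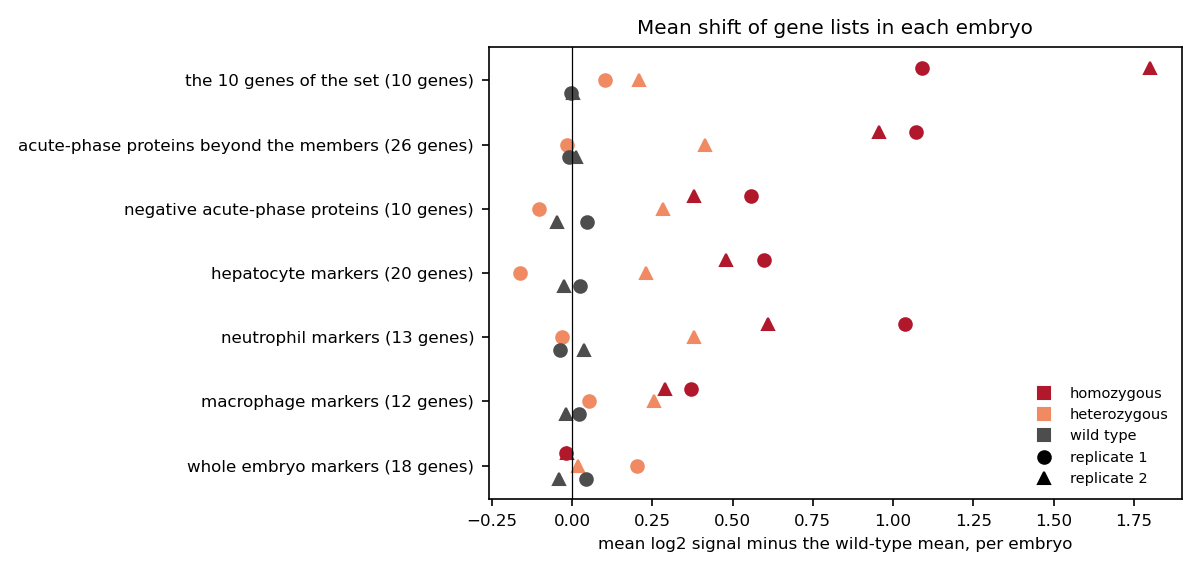
Mean log2 signal of 7 gene lists in each embryo, as the difference from the wild type mean; colours are genotypes, circles and triangles are replicates 1 and 2, and each list is given with its number of genes on the array. The 10 members stand at 1.09 and 1.80 in homozygous, 0.10 and 0.21 in heterozygous embryos, hepatocyte markers at 0.60 and 0.48 in homozygous embryos, and whole-embryo markers at −0.02 in both homozygous embryos.

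The mean shift of the 10 members was 1.09 and 1.80 in the homozygous embryos and 0.10 and 0.21 in the heterozygous embryos. For the other acute-phase proteins it was 1.07 and 0.95 in homozygous and −0.02 and 0.41 in heterozygous embryos. For hepatocyte markers it was 0.60 and 0.48 in homozygous and −0.16 and 0.23 in heterozygous embryos. So the mean of homozygous replicate 2 was the higher of its pair for the members and the lower for both other lists. Single genes weigh heavily in these means. Serpina3n was at 4.17% and 51.3% in homozygous replicates 1 and 2, while Saa1, Itih3, Lrg1 and the brighter Itih4 probe were higher in replicate 1. Among the other acute-phase proteins Apcs was at 39.1% and 2.04%. The order of the means without these genes was not tested.

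Genes whose 6 values lay closest to a member's, by Euclidean distance of centred log2 values over 16942 named genes, were listed for 4 members. For Saa3 they were Sbspon (distance 1.33), Tmem72 (1.46) and Serpina3n (1.53), where the median distance of all genes was 4.70. Tmem72 was at 9.87% and 25.9% in homozygous embryos, 3.32% and 2.27% in heterozygous embryos, and 1.90% and 1.81% in wild type embryos, with the same replicate high as for Saa3. For Serpina3n they were Gm609 (1.53), Saa3 (1.53) and Olfr331 (1.61), with a median of 4.81. Sbspon and Gm609 were well above background on 2 arrays and Olfr331 on 3, so their low values are bounds. For the brighter Itih4 probe they were the chemokine Ccl12 (0.46), the interferon-induced Ifitm6 (0.50) and Hp (0.52), with a median of 1.94. Ccl12 was at 13.4% and 10.2% in homozygous embryos, 5.73% and 5.15% in heterozygous embryos, and 2.83% and 3.48% in wild type embryos. For Lbp they were Tagap1 (0.17), Atp8b4 (0.19) and Pkp4 (0.20), with a median of 1.42, and each had homozygous replicate 2 as its highest embryo. Pkp4, a plakophilin of cell junctions, was at 39.8% and 78.0% in homozygous embryos, 24.3% and 29.2% in heterozygous embryos, and 24.3% and 22.7% in wild type embryos.

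**Figure D4:**
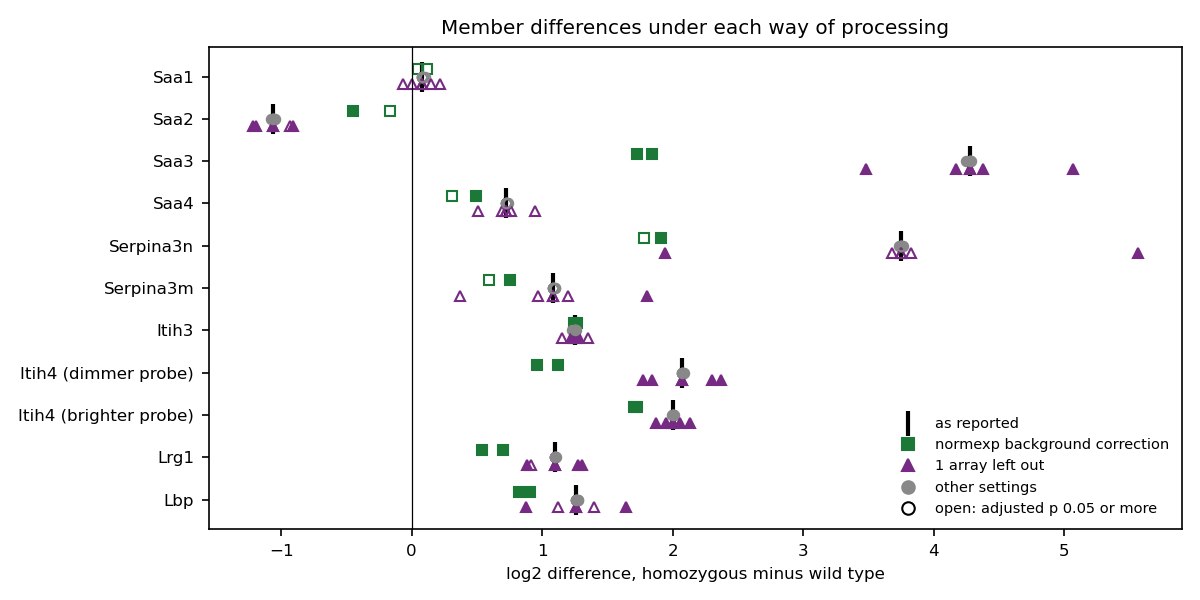
Log2 difference, homozygous minus wild type, of each member probe under every setting tried; black bars are the reported values, green squares the normexp background correction, purple triangles fits without 1 array, grey circles the other settings, and open symbols have an adjusted p of 0.05 or more. Normexp moves the dim probes toward 0 (Saa3 4.27 as reported and 1.84 with normexp, Saa2 −1.06 and −0.16), and leaving out a homozygous array moves Serpina3n to 5.56 or 1.94.

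Under the normexp correction the median of all probes shifted to 0.19 between homozygous and wild type embryos, against 0.08 as reported, and 67.2% of calls were then higher, against 47.5%. Between homozygous and heterozygous embryos it shifted to 0.24, against 0.07, and 76.0% of calls were higher, against 42.2%. Relative to the medians, the homozygous minus wild type difference of Saa3 was 1.65 with normexp and 4.20 as reported, and that of Saa2 was −0.35 with normexp and −1.14 as reported. For Saa4 it was 0.30 with normexp and 0.65 as reported, and for Serpina3m 0.56 and 1.01.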

How the data were processed

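Total RNA of 6 mouse embryos was measured, 2 per genotype, with genotypes and replicate numbers taken from the sample titles. The deposited files of single arrays hold spot intensity as written by Agilent Feature Extraction 11.0.1.1, per the file headers, background-subtracted within each array and with no normalization between arrays, beside a flag for spots well above background. A deposited series table gives the authors' log2 values, with 1 common median, whose normalization method is not given in the sources used here. Its columns correlated at 0.995 to 0.998 with the intensities of their own array.

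Control spots and outlier spots were left out and spots of a probe averaged. Processed intensities were taken as log2, less the array's 75th percentile. Probe accessions were matched to symbols with the RefSeq gene table of GRCm38.p6, used for names and gene order only since the array was annotated to mm9. It named 27234 of 39429 probes (69.1%). A probe was tested where 1 genotype or more had it well above background in both embryos (29827 probes), with limma 3.58.1 in R 4.3.3 over all 6 arrays (3 residual and 3.37 prior degrees of freedom), with Benjamini-Hochberg adjustment within each comparison at 0.05. The fit was tested on simulated data in which a probe had the same spread in every genotype. In the real data the median distance between replicates was 0.25 in homozygous and 0.11 in wild type embryos. The simulation does not cover such unequal spread. An exact permutation test of 2 against 2 embryos cannot go below p = 0.333, so none was run. The number of arrays limits the precision. For gene lists the probe with the highest mean stood for a gene (24299 genes in all).

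Alternatives were normexp background correction (offset 50, on median spot signals, since mean signals were not used here) with the 75th percentile or with quantile normalization, the array median as the scale, the authors' log2 table, other filters, 1 probe a gene, the replicate number as a block and fewer arrays. The members and gene lists were chosen with earlier results of these data known. Named genes were all member probes, up to 4 genes with the smallest p of each list, Stat3, Il6, Il6st, Cebpb, Cebpd and Socs3, and the 3 genes nearest in pattern to Saa3, Serpina3n, Itih4 and Lbp. Other list members are given as examples chosen after their values were seen.

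Deviations of same-numbered embryos from their group means correlated at 0.286 between homozygous and heterozygous, −0.159 between homozygous and wild type and −0.0018 between heterozygous and wild type embryos over all probes, so the numbers were not taken as pairs. Upstream windows and motif matches were read from RefSeq (GRCm38.p6).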

Additional observations from a re-analysis of the deposited data

How the results depend on the processing

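Between homozygous and wild type embryos, Saa3 and the 2 Itih4 probes passed under every setting in which they were tested, and Saa1 under none. In fits without 1 array, the genotype left with 1 array adds nothing to the spread. Normexp correction with the 75th percentile gave 6967 probes higher (3938 as reported) and 0 member probes lower. Leaving out 1 array gave 590 to 5510 probes higher and 1554 to 5281 lower (4354 as reported), with 3 to 8 member probes higher and 0 to 1 lower, and Saa1 ranged over −0.066 to 0.22.

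Between heterozygous and wild type embryos no member passed under any setting, and over all probes leaving out 1 array gave 0 to 1 higher and 0 to 7 lower. Small differences changed sign with normexp and the 75th percentile for Saa1 (−0.054), Saa3 (−0.13), Saa4 (−0.097), Serpina3n (−0.17) and Lrg1 (−0.062), with normexp and quantile normalization for Saa1 (−0.038), with the array median for Saa1 (−0.0073) and Saa4 (−0.040), and with the authors' table for Saa4 (−0.029). Without 1 array Saa1 ranged over −0.061 to 0.13, Saa4 over −0.46 to 0.46, Itih3 over −0.11 to 0.54 and Lrg1 over −0.057 to 0.31.

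Between homozygous and heterozygous embryos, normexp with the 75th percentile gave 10467 probes higher (2863 as reported), 0 member probes lower and a Saa2 difference of 0.14. The fit on the 4 arrays compared gave 1122 higher and 2477 lower (3928 as reported), with fewer arrays behind the spread. There, with normexp and quantile normalization, with no filter and with the replicate block, 0 member probes were lower. Leaving out 1 array gave 473 to 4594 higher and 1423 to 4983 lower, with 1 to 8 member probes higher and 0 to 1 lower, and Saa1 ranged over −0.10 to 0.19. The cause of these changes was not tested.

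The replicate block gave 3751 probes higher and 4319 lower between homozygous and wild type embryos and 2665 and 3874 between homozygous and heterozygous embryos, where Saa2 (−0.64, adjusted p = 0.0550) lost its call and no other member call changed. The pairing rests on the numbers alone. No fit with slide could be made for homozygous embryos, and heterozygous and wild type arrays share 1 slide, so their fit on that slide is the fit on those 4 arrays. Saa3 in wild type was limited by background, and with 2 embryos per genotype a difference as variable as that of Serpina3n had an interval several log2 units wide.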
